A study of Mus musculus with 2 samples.

Results

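The genes of blood coagulation and fibrinolysis were compared between the livers of wild-type (WT) and E4bp4-LKO mice, the latter described as deficient in E4BP4, a basic leucine zipper repressor encoded by Nfil3. The set was a named list of 33 genes, of which 31 had a probe set carrying exactly 1 gene symbol, out of 22180 genes measured in all. Each genotype was represented by 1 Affymetrix array hybridised with liver RNA pooled from male mice that began a high-fat diet when 2 months old and ate it for 12 weeks. Both pools came from animals on that diet, so no chow-fed group enters the comparison. The number of mice per pool, the hour of collection and the construct behind the LKO allele are not stated in the labels.

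With 1 array per genotype, no difference below has a replicate error, a test or a p-value, and each describes these 2 arrays. Values are log2 intensities, a difference is E4bp4-LKO minus WT, and 1.5-fold corresponds to 0.58 on this scale. A floor was set at the median level of all genes (4.20), and counts were made over genes whose mean of both arrays lay above it. A measure of probe error only was taken from the 555 genes with 2 probe sets and a mean level above the floor. The disagreement between the 2 probe sets of a gene gave a standard deviation of 0.22 for the difference of 1 probe set. The targeted gene Nfil3 lay at 5.94 on the WT array and 4.47 on the E4bp4-LKO array, a difference of -1.47. The hepatocyte markers, among them Alb at 12.77 on both arrays, were all above the floor, and the 11 of them with a value differed by between -0.15 and 0.30 (median -0.005).

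Blood clots when a cascade of serine proteases turns prothrombin into thrombin, which cuts fibrinogen into fibrin. Anticoagulants of the serpin and protein C systems hold the cascade in check, and plasmin, made from plasminogen by its activators, dissolves the fibrin again. Most of these proteins are secreted into plasma by hepatocytes, whereas factor VIII, von Willebrand factor, tissue plasminogen activator and thrombomodulin come mainly from endothelial cells. Several liver promoters of the cascade are known to be driven by C/EBP and HNF factors, and fibrinogen is an acute phase protein induced by IL-6.

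Promoter sequences were available in the RefSeq table (GRCm38.p6) for 24 of the 33 genes, as 26 promoters. The 3 fibrinogen promoters are shown because these neighbouring genes lay on the same side of 0, and that of F9, which encodes clotting factor IX, because D-box and C/EBP factors are known to bind the human promoter. Each run is the 250 bases before the gene's start, 5′ to 3′ on the gene's strand. Capitals mark matches to the C/EBP core TTGCNNAA or to the IL-6 response element core CTGGGAA on either strand. Fgg lies at chr3:83007474-83007723, plus strand, Fga at chr3:83025903-83026152, plus strand, Fgb at chr3:83049864-83050113, minus strand, and F9 at chrX:59999214-59999463, plus strand.
Fgg: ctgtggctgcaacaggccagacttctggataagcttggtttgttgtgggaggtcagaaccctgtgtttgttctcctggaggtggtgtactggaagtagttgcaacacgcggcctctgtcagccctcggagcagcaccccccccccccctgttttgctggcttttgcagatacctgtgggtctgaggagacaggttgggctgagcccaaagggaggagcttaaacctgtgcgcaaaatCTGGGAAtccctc
Fga: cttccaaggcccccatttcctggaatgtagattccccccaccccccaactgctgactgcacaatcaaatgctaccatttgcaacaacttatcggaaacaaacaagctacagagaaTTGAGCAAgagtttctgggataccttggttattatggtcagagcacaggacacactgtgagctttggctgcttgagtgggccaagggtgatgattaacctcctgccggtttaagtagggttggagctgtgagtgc
Fgb: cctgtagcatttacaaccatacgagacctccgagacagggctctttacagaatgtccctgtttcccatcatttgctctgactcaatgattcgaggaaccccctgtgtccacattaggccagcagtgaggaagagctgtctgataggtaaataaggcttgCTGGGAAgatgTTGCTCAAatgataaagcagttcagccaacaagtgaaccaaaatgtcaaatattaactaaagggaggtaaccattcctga
F9: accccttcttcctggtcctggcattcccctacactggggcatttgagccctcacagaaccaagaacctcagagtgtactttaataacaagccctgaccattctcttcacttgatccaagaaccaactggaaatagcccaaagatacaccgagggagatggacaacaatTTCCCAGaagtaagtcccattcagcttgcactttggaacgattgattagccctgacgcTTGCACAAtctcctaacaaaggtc

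The Fgb window held both motifs close together, CTGGGAA starting 91 bases and TTGCTCAA starting 80 bases before the start. In Fga a C/EBP core on the reverse strand began 135 bases before the start, and in Fgg a CTGGGAA began 13 bases before it. F9 held a C/EBP core 24 bases and a reverse CTGGGAA 82 bases before its start. Over the whole set, 7 of the 26 promoters had a TTGCNNAA in this window, against 9.56% of all 32851 promoters. They were those of F11, F9, Fga, Fgb, Hrg, Klkb1 and Plaur. A CTGGGAA was found in 4 of the 26 (F9, Fgb, Fgg and Tfpi), against 9.10% of all promoters. The D-box, the element shared by E4BP4 and the PAR bZIP activators, was searched as TTATGTAA and TTACGTAA on both strands. It matched in 0 of the 26 promoters, against 0.819% and 0.113% of all promoters. A match is only a run of letters, and its absence from so short a window says nothing about binding elsewhere.

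Across the set as a whole the 2 arrays were close. Of the 28 genes above the floor, 1 was lower by 1.5-fold or more in E4bp4-LKO and 0 were higher by as much. That is 3.57% of them, the same as the 3.57% of all 11090 genes above the floor that passed 1.5-fold in either direction (2.06% lower, 1.51% higher), so the count is at the background. Their median difference was 0.02, against -0.02 over all genes above the floor. The 1 gene was Plat, which encodes tissue plasminogen activator. Differences within the probe error of 0.22 were found for 23 of the 28 genes (82.1%, against 69.3% of all genes above the floor), and the other 5 were Plat, Vwf, Plau, Serpina10 and F8.

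**Figure D1:**
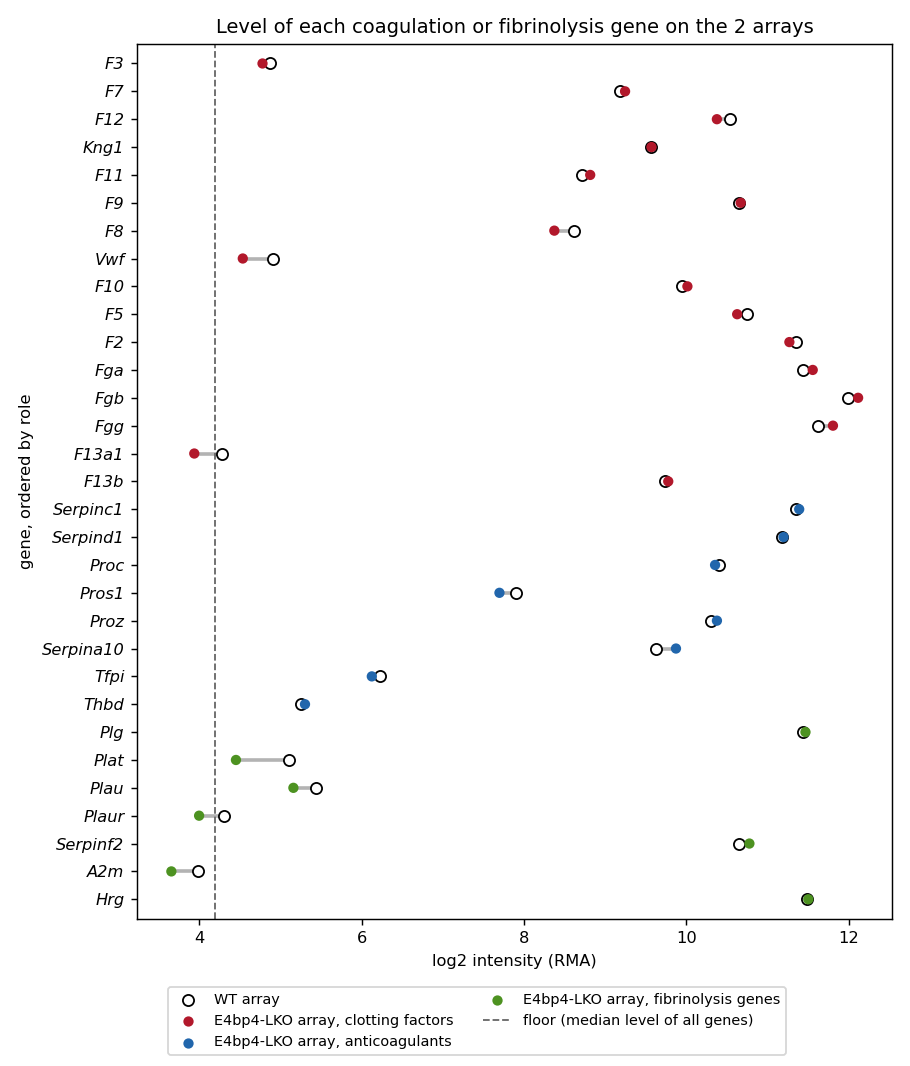
Level of each of the 31 genes with a value on the WT array (open circles) and the E4bp4-LKO array (filled circles, coloured by class), as log2 intensity, with the floor of 4.20 dashed. Within most rows the circles nearly coincide, while Plat is at 5.11 on the WT array and 4.45 on the E4bp4-LKO array; levels of different genes come from different probes and are not to be compared.

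By class, the medians lay close together. The 15 clotting factors above the floor had a median difference of 0.02, the 8 anticoagulants of 0.03 and the 5 fibrinolysis genes of 0.02. The ranges were from -0.37 to 0.18, from -0.20 to 0.25 and from -0.66 to 0.13, so the fibrinolysis genes reached furthest below 0. Their median depended on the floor: with the dim genes Plaur and A2m included it was -0.28 over 7 genes, while the median of the clotting factors became 0.01 over 16.

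The starting step of the cascade was represented by both its partners. F3, which encodes tissue factor, the membrane protein that triggers clotting, lay at 4.87 (WT) and 4.78 (E4bp4-LKO), a difference of -0.09. F7, the plasma protease that tissue factor binds, lay at 9.18 and 9.24, a difference of 0.07. Neither differed by more than the probe error.

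In the contact and intrinsic pathway the values lay on both sides of 0, 3 genes above and 3 below. F12, the protease that starts contact activation, was at 10.54 on the WT array and 10.37 on the E4bp4-LKO array (-0.17). F11, which activated factor XII cleaves, was at 8.71 and 8.81 (0.10), and F9, the next protease, at 10.65 and 10.67 (0.02). These 3 proteases therefore differed by less than the probe error, F9 least. Kng1, the kininogen cofactor that also gives rise to bradykinin, was at 9.57 on both arrays. Its paralog Kng2, which lies next to it in the RefSeq gene order, was at 10.55 and 10.59, and the probe sets of such near-identical genes may share signal. Klkb1, the gene of plasma prekallikrein, has no value here because its probe set carries several gene symbols.

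F8 and Vwf, which encode the cofactor of factor IX and the carrier that protects it in plasma, were both lower on the E4bp4-LKO array. F8 lay at 8.61 (WT) and 8.37 (E4bp4-LKO), a difference of -0.24 or 1.18-fold. Vwf lay at 4.91 and 4.54, a difference of -0.37 or 1.30-fold, with both values above the floor. Neither reached 1.5-fold. Of a list of 12 endothelial markers, all above the floor, 10 had a negative difference (83.3%, against 54.5% of all genes above the floor). Their median was -0.18 (range -0.52 to 0.06), against -0.02 over all genes above the floor, and 0 of them passed 1.5-fold. Their mean level was 7.69 on the WT array and 7.50 on the E4bp4-LKO array. The markers were not uniform. Pecam1 and Cdh5 differed by -0.27 and -0.31 and Lyve1 by -0.52, whereas Tek, Erg and Clec4g lay near 0 (0.003, -0.05 and 0.06). With 1 array of pooled liver RNA per genotype, variation between pools or arrays, fewer endothelial cells and less RNA per cell cannot be told apart. The part of these markers in the values of F8 and Vwf was not tested.

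The common pathway differed little. F10, the protease at which both routes meet, was at 9.94 and 10.01 (0.07). F5, its cofactor, was at 10.75 and 10.62 (-0.12), and F2, the prothrombin gene, at 11.35 and 11.27 (-0.08). All 3 were within the probe error.

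The 3 chains of fibrinogen were all slightly higher on the E4bp4-LKO array. Fga lay at 11.44 (WT) and 11.56 (E4bp4-LKO), Fgb at 11.98 and 12.11, and Fgg at 11.62 and 11.80. The differences of 0.11, 0.13 and 0.18 correspond to 1.08-fold, 1.09-fold and 1.14-fold, each below the probe error of 0.22. The genes follow each other as Fgg, Fga and Fgb in the RefSeq gene order, and their products assemble into one hexamer. Their promoters differ in the motifs shown above, Fgb holding both and the others 1 each. F13b, the carrier subunit of the fibrin-crosslinking transglutaminase factor XIII, was at 9.74 and 9.78 (0.04). F13a1, its catalytic subunit, which is made by cells of the macrophage and megakaryocyte lineages, was at 4.28 and 3.94 (-0.34), the second value below the floor, so the size of this difference is uncertain. Of the macrophage and Kupffer cell markers, 6 of 12 were above and 6 below 0 (50% negative, against 54.5% of all genes above the floor), with a median of 0.06. Cd163, Lyz2, Timd4, Marco, Vsig4 and Clec4f differed by between 0.17 and 0.46. Cd68, Adgre1, Itgam, Mrc1, C1qa and Csf1r differed by between -0.43 and -0.05. The mean level of the markers was 7.22 on the WT array and 7.29 on the E4bp4-LKO array. The part of these markers in the value of F13a1 was not tested.

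**Figure D2:**
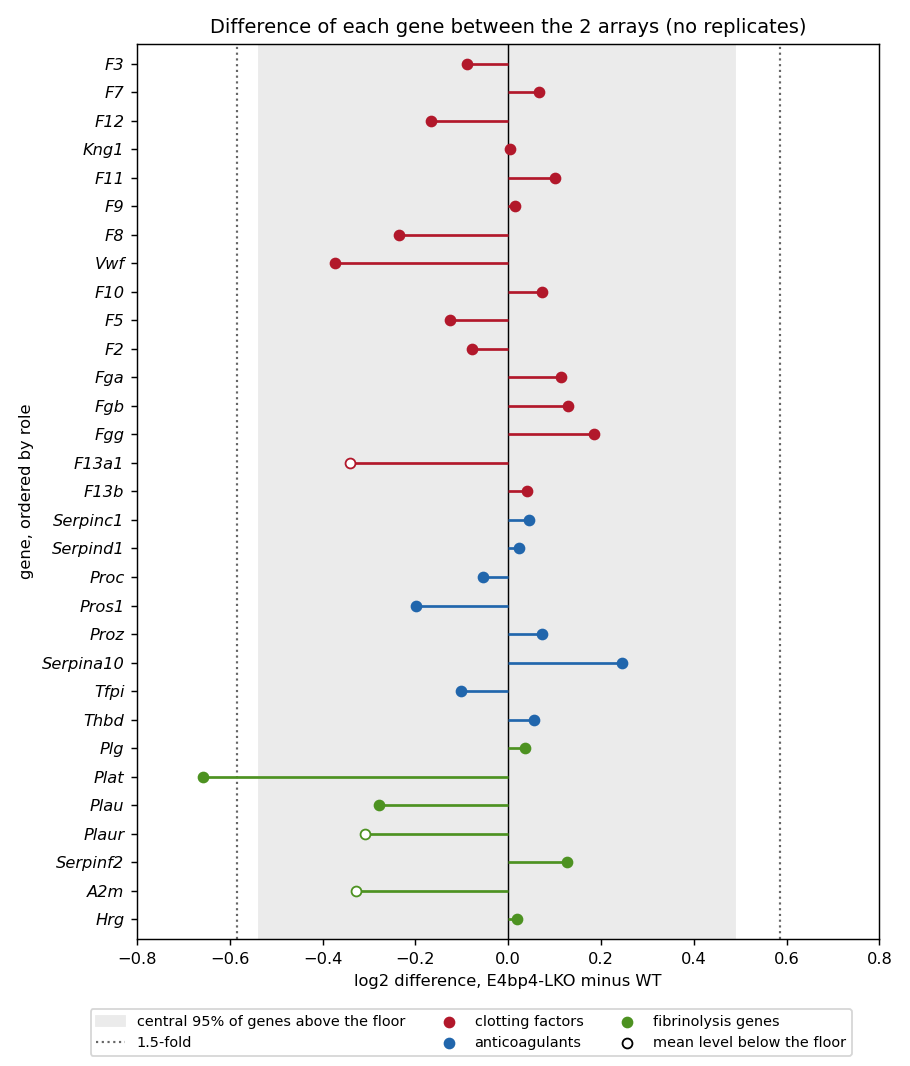
Log2 difference, E4bp4-LKO minus WT, of each of the 31 genes, coloured by class and with open circles for the 3 genes whose mean level was below the floor; dotted lines mark 1.5-fold and the grey band the central 95% of all genes above the floor (-0.54 to 0.49). Plat is the 1 gene outside the band, and the 3 fibrinogen chains lie at 0.11 to 0.18.

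Among the anticoagulants, the antithrombin gene Serpinc1 and the heparin cofactor II gene Serpind1, the main serpins that block thrombin, lay at 11.34 and 11.17 on the WT array and at 11.39 and 11.20 on the E4bp4-LKO array. These are differences of 0.05 and 0.02. Serpina10, the gene of the protein Z-dependent protease inhibitor that blocks factor Xa, was at 9.62 and 9.87. Its difference of 0.25, or 1.19-fold, was the largest positive one of the set and just beyond the probe error. Proz, the cofactor of that inhibitor, was at 10.30 and 10.38 (0.07). Counting Serpinf2 with them, all 4 serpins of the set had a positive difference (0.02 to 0.25), none past 1.5-fold. Only Serpina10 lay beyond the probe error. All 4 were above the 75th percentile of level (6.28), where 16 of the 22 members and 2529 of all 5545 genes were positive.

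The genes of the protein C system lay on both sides of 0, all within the probe error. Proc, the protease that inactivates factors Va and VIIIa, was at 10.41 and 10.35 (-0.05). Its cofactor gene Pros1 was at 7.90 and 7.70 (-0.20, 1.15-fold). Thbd, the thrombomodulin gene, whose product lets thrombin activate protein C on endothelium, was at 5.25 and 5.30 (0.05). Tfpi, the inhibitor of tissue factor, was at 6.23 and 6.13 (-0.10). Thbd and Tfpi, both expressed by endothelial cells, were thus not lower to the extent of Vwf, a contrast between single values that no replicate supports.

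The vitamin K-dependent proteins, which need gamma-carboxylation to bind membranes, can be read across these roles. The 7 of them in the set (F2, F7, F9, F10, Proc, Pros1 and Proz) differed by between -0.20 and 0.07, with 4 above and 3 below 0. The adjacent genes F7, F10 and Proz differed by 0.07 each. Of the enzymes that serve them, Ggcx, the carboxylase, was at 9.56 and 9.37 (-0.20), and Vkorc1, the vitamin K epoxide reductase subunit that warfarin targets, at 9.20 and 9.43 (0.23). These lay on opposite sides of 0 and near the probe error.

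In fibrinolysis the genes of the activators and of the urokinase receptor, but not that of the proenzyme, had lower values on the E4bp4-LKO array. Plg, the liver-made plasminogen, was at 11.43 (WT) and 11.47 (E4bp4-LKO), a difference of 0.04. Plat was at 5.11 on the WT array and 4.45 on the E4bp4-LKO array. This difference of -0.66, or 1.58-fold lower, was the one beyond 1.5-fold in the set; the next in size was Vwf at -0.37. Plau, the urokinase gene, was at 5.44 and 5.16 (-0.28, 1.21-fold). Plaur, its receptor, was at 4.31 and 3.999 (-0.31), with the E4bp4-LKO value below the floor. Plat and Plau lay between the floor and the 75th percentile of level (6.28), and the mean of Plaur lay below the floor. Between the floor and that percentile 4.33% of all genes passed 1.5-fold, against 2.81% above the percentile and 2.38% below the floor.

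The inhibitors and modulators of fibrinolysis lay on both sides of 0. Serpinf2, which encodes alpha2-antiplasmin, the main plasmin inhibitor, was at 10.65 and 10.78 (0.13). Hrg, a plasma glycoprotein that binds plasminogen, was at 11.48 and 11.50 (0.02). A2m, a broad protease inhibitor, was at 3.99 and 3.66 (-0.33), both under the floor, whereas the related Pzp was at 12.08 and 12.05 (-0.03). Cpb2, the carboxypeptidase that protects fibrin from plasmin, has no probe set with 1 symbol here.

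**Figure D3:**
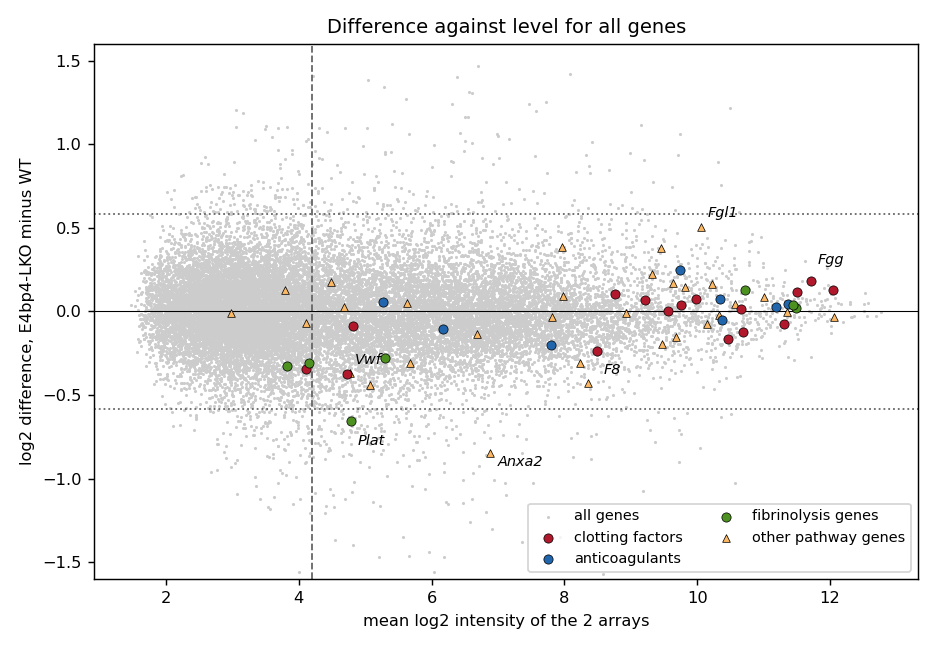
Log2 difference, E4bp4-LKO minus WT, against the mean log2 intensity of the 2 arrays for all genes (grey), the set (circles by class) and 28 further pathway genes above the floor with 3 below it (triangles); dotted lines mark 1.5-fold, the dashed line the floor, and 20 genes lie beyond the axis limit of 1.6. The 22 members of the set above the 75th percentile lie between -0.24 and 0.25, and the members with the most negative differences lie at low levels.

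The differences of the set also varied with level. The 22 genes above the 75th percentile of level had 16 positive and 6 negative differences (27.3% negative, against 54.4% of all genes at that level). Their median was 0.04, against -0.02 over all genes at that level, and their range was from -0.24 to 0.25. None of them passed 1.5-fold (2.81% of all genes at that level did). Of these, 20 (90.9%) lay within the probe error, against 74.3% of all genes at that level. The 6 genes between the floor and that percentile (F3, Vwf, Tfpi, Thbd, Plat and Plau) had 5 negative differences and a median of -0.19, whereas 54.6% of all genes in that band were negative, with a median of -0.03. The 3 genes below the floor, F13a1, Plaur and A2m, were all lower on the E4bp4-LKO array, with differences between -0.34 and -0.31. Of all genes below the floor, 50.2% were negative. Genes of the set are not replicates, and dim genes here are also largely those expressed outside hepatocytes, so level and cell source cannot be told apart.

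Of a list of 36 other genes of the pathway, 31 had a value and 28 lay above the floor. Past 1.5-fold were 1 lower and 0 higher (3.57%, again at the background of 3.57%), with a median of -0.005. The 1 gene was Anxa2, whose product, annexin A2, binds plasminogen and tissue plasminogen activator at the cell surface. It lay at 7.30 on the WT array and 6.45 on the E4bp4-LKO array, a difference of -0.85 or 1.80-fold. S100a10, its partner in that complex, lay at 10.14 and 10.31 (0.17), on the other side of 0. Plgrkt, another plasminogen receptor, was at 5.82 and 5.51 (-0.31). Fgl1, a liver-secreted protein of the fibrinogen family, had the largest positive difference of the list, at 9.81 and 10.31 (0.50, 1.42-fold), and Fgl2, a prothrombinase, was at 5.61 and 5.66 (0.05). Thbs1, the gene of the platelet and matrix protein thrombospondin, was at 5.29 and 4.85 (-0.44).

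Among the receptors for thrombin, F2r, which encodes PAR1, was lower, at 8.58 and 8.15 (-0.43, 1.35-fold), and F2rl2, which encodes PAR3, was at 4.40 and 4.58 (0.18). Mcfd2 and Lman1 encode the cargo receptor that carries factors V and VIII out of the endoplasmic reticulum. They differed by 0.38 (7.78 and 8.16) and -0.08 (10.18 and 10.10), beside -0.12 for F5 and -0.24 for F8. Of the other inhibitors, Tfpi2 was at 9.26 and 9.64 (0.38), and Gas6, a vitamin K-dependent ligand of TAM receptors, at 8.40 and 8.09 (-0.31). Of the genes of clearance and processing, Adamts13, the protease that trims von Willebrand factor, was at 4.96 and 4.59 (-0.37), a difference like that of Vwf itself. Asgr2, a subunit of the hepatic lectin that clears desialylated glycoproteins, was at 9.56 and 9.72 (0.17).

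**Figure D4:**
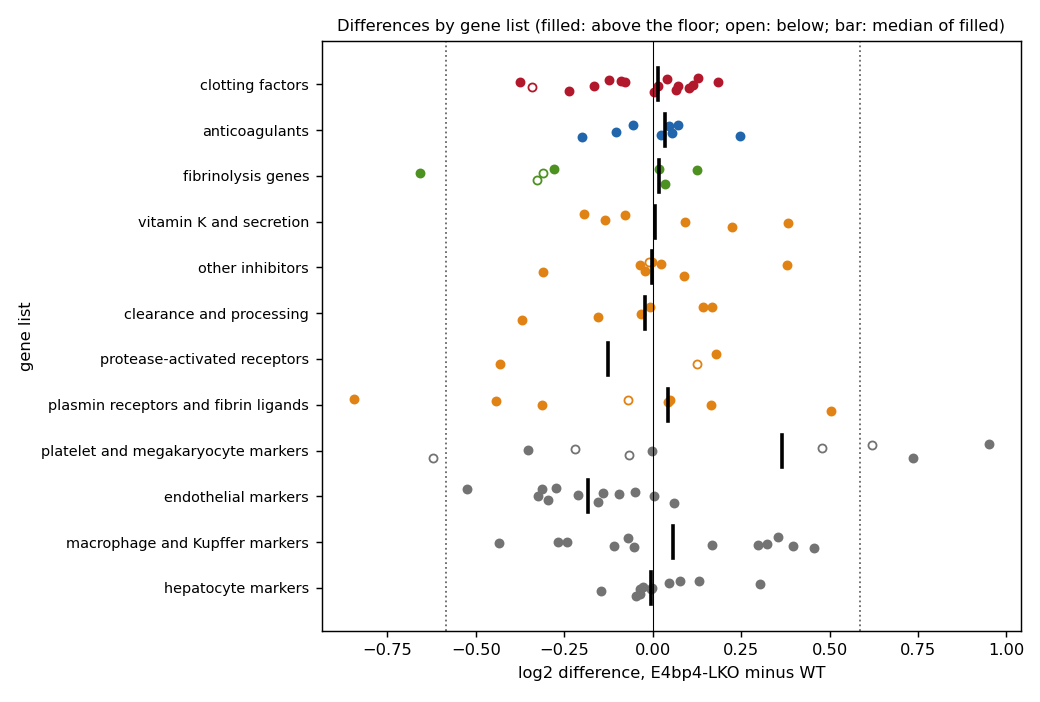
Log2 differences, E4bp4-LKO minus WT, of the 3 classes of the set, of the 5 roles of the other pathway genes and of 4 marker lists; filled points lie above the floor, open points below it, black bars are medians of the filled points and dotted lines mark 1.5-fold. Medians of the 3 classes lie between 0.02 and 0.03, and that of the endothelial markers lies at -0.18.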

How the data were processed

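Total liver RNA of the pooled mice was labelled from 400 ng and hybridised to Affymetrix arrays, per the labels' protocols. The authors deposited log2 values, 1 per probe set and array; they were made with RMA under R 3.4.0, per the submitters' processing notes, and the annotation used is not given in the sources used here. RMA equalises the arrays' distributions (medians 3.74 for WT and 3.75 for E4bp4-LKO), so a shift shared by all genes could not be seen.

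Of 41345 probe sets, the 23521 with 1 gene symbol in the platform annotation were averaged per gene; 1814 with several symbols and 16010 with none were left out. Each of the 31 genes of the set had 1 probe set, so no second probe checks any of them. Differences were taken with pandas 2.3.3, counted at 1.5-fold above a floor at the median level, and set beside the same counts over all genes. With 1 array per genotype there was no test, and the number of arrays limits the precision. Alternatives were the brightest probe set, centring, removal of a lowess trend (span 0.3), other floors and other fold thresholds. The steps were checked on simulated data. All members are named, and of the other pathway genes those past 1.5-fold and the 2 of each role with the largest difference above the floor; S100a10, Plgrkt, Thbs1, Fgl2, Kng2, Pzp, Ggcx and Lman1 were named after their values were seen, as partners or paralogs. The members and lists were chosen with earlier results of these data known. Promoters were taken by symbol from the RefSeq table of GRCm38.p6.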

Additional observations from a re-analysis of the deposited data

How the results depend on the processing

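Use of the brightest probe set could not move any of the 31 differences, because each gene had 1 probe set, so it checks nothing. Each difference kept its sign after centring on the median difference and after removal of the intensity trend, where the largest move was 0.03. The number of members past 1.5-fold stayed at 1 lower and 0 higher after centring and trend removal, with a floor at the 25th percentile and with no floor. It was 0 lower with a floor at the 75th percentile, which leaves out Plat, 2 lower (and 0 higher) at a threshold of 0.32 on the log2 scale, and 0 lower at 2-fold. The threshold of 0.32 was passed by 16.3% of all genes above the floor and the 2-fold threshold by 0.794%. For the other pathway genes the count past 0.32 was 3 higher and 4 lower, and at 2-fold 0 lower. The median of the fibrinolysis genes was -0.28 with a floor at the 25th percentile and with no floor, against 0.02 above the floor used, because 2 dim genes then enter; the medians of the clotting factors and anticoagulants stayed between 0.01 and 0.06 under all settings run. No paired analysis was possible because each genotype has 1 array. Signal near background limits the values of Plat, Vwf, F3, F13a1, Plaur and A2m, and of the other pathway genes Adamts13 and F2rl2.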

Other observations

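Platelet and megakaryocyte markers, which bear on clotting through the cells rather than the plasma proteins, differed in both directions. Of 12 listed, 9 had a value, 4 of them positive and 5 negative, and 4 lay above the floor. Ppbp, a chemokine precursor stored in platelets, was at 4.83 (WT) and 5.78 (E4bp4-LKO), a difference of 0.95. Gp9, a subunit of the von Willebrand factor receptor, was at 3.97, under the floor, and 4.71 (0.74). These 2 of the 4 above the floor were higher by more than 1.5-fold and 0 were lower by as much. That is 50%, against 3.57% of all genes above the floor. Gp9 passed the floor only through its E4bp4-LKO value, so this share is not read as an excess. With no floor, 3 of the 9 were higher and 1, Pf4, was lower by as much (44.4%, against 2.98% of all genes). The integrin gene Itgb3, also above the floor, differed by -0.35. Of the 5 genes with a mean level below the floor, the receptor genes Gp6 and Gp5 differed by 0.62 and 0.48, Pf4, another platelet chemokine, by -0.62, and Itga2b and Treml1 by -0.22 and -0.07. Clec1b, which liver endothelium also expresses, was at 6.92 on both arrays. The markers therefore did not lie on 1 side of 0. These genes were named after their values were seen, and with 1 array per genotype no difference among them has an error.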
